A study of Trichechus manatus latirostris with 11 samples.

Results

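OSCAR and the genes of the receptor pathway it belongs to were described in buffy coat RNA, the white cell layer of centrifuged blood, from Florida manatees. The members were picked by name, with earlier results of these data known: 5 myeloid receptors (OSCAR, TREM1, TREM2, CLEC4E and CLEC7A), the adaptors TYROBP and FCER1G, the kinases SYK and LYN, and the phospholipase PLCG2. Of these 10 genes, 5 had a row under their RefSeq symbol in the deposited table, which holds 15298 transcript records and 9641 different symbols. LYN had 2 records, so the 5 genes gave 6 rows. No row carried the symbols TREM1, TREM2, CLEC7A, TYROBP or SYK, and these 5 genes were not analysed here. The RefSeq table lists all 5 only under records whose numbers do not begin with XM_004, as 15223 of the 15298 rows do. Another 5218 rows matched no symbol.

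The red tide group comprised 4 adult animals brought to a zoo in Tampa for treatment of red tide illness. Of these, 2 were sampled on arrival and 2 after a week of treatment. In each group 1 animal was female and the others were male. The control group comprised 7 adults: 4 from Crystal River, 2 from the Indian River Lagoon in Brevard County and 1 recovering from pneumonia at the same zoo. All libraries were depleted of ribosomal and globin RNA. Sampling place and season, rehabilitation and the storage described for the groups differ together with red tide exposure, and their parts in any difference cannot be told apart.

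Myeloid cells carry activating receptors with short tails that do not signal on their own. These receptors pair with adaptor proteins that hold an immunoreceptor tyrosine-based activation motif (ITAM). When a receptor binds its ligand, a Src family kinase such as LYN phosphorylates the motif, SYK docks on it, and scaffold proteins bring in phospholipase C gamma, which releases calcium and turns on NFAT and NF-kB. OSCAR was named for osteoclasts, where it binds collagens and acts through FCER1G beside the RANK receptor, and it is also carried by monocytes, dendritic cells and neutrophils. CLEC4E, also called Mincle, senses glycolipids of mycobacteria and fungi and a protein set free by dying cells, and it too signals through FCER1G. CLEC7A carries a single-tyrosine form of the motif in its own tail, whereas the TREM receptors depend on TYROBP.

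The table gives, for each record, the authors' mean normalized count (reads divided by a size factor that scales for the depth of each library) over 4 libraries and over 7 libraries. These numbers of libraries are the sizes of the red tide and the control group, but the columns do not name their groups, and no column of a single sample lets the link be checked. The table's title names red tide first and the other 7 libraries second. By title and number the 4-library mean would thus be that of the red tide animals. The paper, however, lists OSCAR as upregulated in the red tide group, while its mean here is higher over the 7 libraries. Because the sources used here conflict, which of the means belongs to the red tide animals is treated as uncertain. The means are called the 4-library mean and the 7-library mean, and no direction is to be read as a rise or fall with red tide. Every group mean adds up whole reads that count differently from library to library, so size factors could be worked out from the lowest means: 1.56, 1.03, 0.620 and 0.372 in the 4-library group and 0.702 to 1.73 in the 7-library group. The total number of reads in each library is not known from such means. For 4-library means of up to 100, the reads of each library were worked out if the mean had a unique solution in whole reads, which was true for 10141 of 10159 rows. For higher 4-library means of the members and for all their 7-library means the spread between libraries is unknown. The group means had been used to choose the members, so all values are given as a description and no test was made.

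The members did not move together. OSCAR had the higher mean in the 7-library group by 12.8-fold, and CLEC4E, the other receptor with a row, had the higher mean in the 4-library group by 2.37-fold. The adaptor FCER1G was 1.92-fold higher in the 7-library mean. The kinase LYN and the phospholipase PLCG2 differed by 1.28-fold or less in each of their 3 rows. A fold of at least 2 in favour of the 7-library mean was thus seen in 1 of the 6 rows (OSCAR), where 10.4% of all 15298 rows showed it and 9.59% of the 10225 rows with a mean over all libraries of at least 10, as all 6 rows had. A fold of at least 2 in favour of the 4-library mean was seen in 1 of the 6 rows (CLEC4E), against 23.9% of all rows and 12.3% of those with a mean of at least 10. Log2 ratios are given with the 7-library mean divided by the 4-library mean, so that positive values stand for a higher 7-library mean. Their median over all rows was -0.14, and ratios of the members are also given after subtracting it. In RNA from mixed blood cells, fewer cells of a type and less RNA per cell cannot be told apart.

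**Figure D1:**
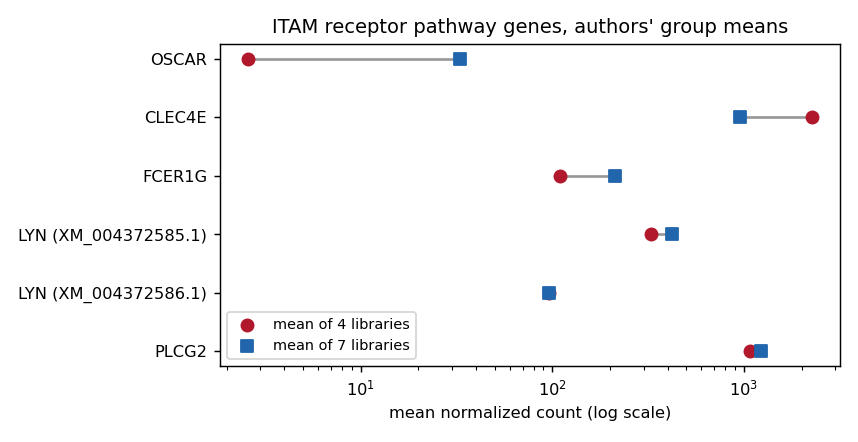
Mean normalized counts (x axis, log scale) of the 6 rows of OSCAR, CLEC4E, FCER1G, LYN and PLCG2, as the authors' mean over 4 libraries (red circles) and over 7 libraries (blue squares). The gap is widest for OSCAR (2.58 and 33.1), CLEC4E is the row with the 4-library mean clearly on the right (2273 and 959), and the markers of the second LYN record lie on top of each other (96.4 and 95.8).

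OSCAR (XM_004381884.1) rested on the fewest reads of all members. Its 4-library mean was built from 5 reads in all: 1, 0, 1 and 3 reads in the libraries of size factor 1.56, 1.03, 0.620 and 0.372. Divided by the size factors these are normalized counts of 0.641, 0, 1.61 and 8.07, a mean of 2.58 ± 3.72 (SD, n = 4). The library with the smallest size factor was therefore the high one, and the library without a read allows a normalized count of up to 2.92 (the upper limit for 0 reads, taken as 3 reads; counting error only).

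The 7-library mean of OSCAR was 33.1 normalized counts. All 4 libraries lay below it, the highest of them at 8.07. The mean of 33.1 corresponds to between 163 and 400 reads over the 7 libraries, depending on which libraries held them. How these reads were spread is not known, so it cannot be said whether single libraries of the groups overlapped.

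The log2 ratio was 3.68 for OSCAR and 3.82 after subtracting the median of all rows. Counting error in the total of 5 reads (exact 95% Poisson interval) allows a fold of 5.50 to 39.5 if every read weighs the same. This range is approximate, since reads weigh more in libraries of small size factor, and it leaves out any spread between animals. The value leaned on a single library: without the library of size factor 0.372 the fold was 44.1 and the log2 ratio 5.46, while leaving out each of the others gave log2 ratios of 3.27 to 3.51. Members of the leukocyte receptor family to which OSCAR belongs resemble each other in sequence, and reads that mapped to several places had been removed by the authors.

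CLEC4E (XM_004387272.1) had means of 2273 normalized counts over the 4 libraries and 959 over the 7 libraries. Its log2 ratio was -1.24, and -1.10 after subtracting the median. The means correspond to at least 3380 and at least 4716 reads, so counting error is small here, but neither mean was taken apart into libraries.

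**Figure D2:**
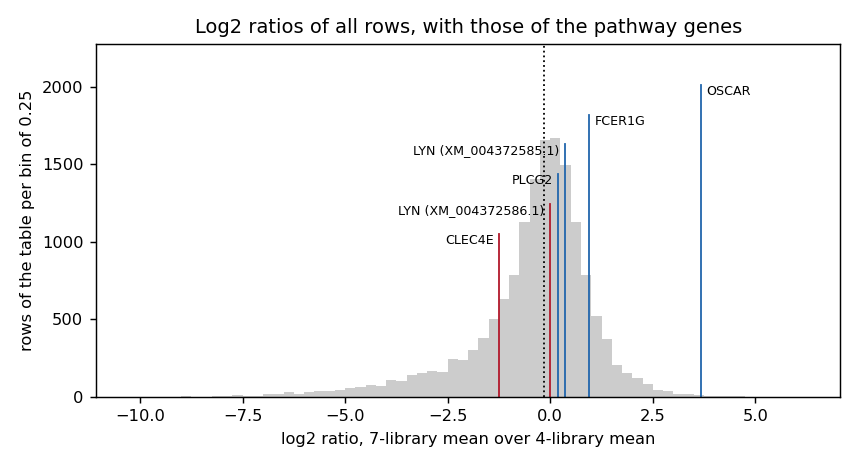
Number of rows (y axis) by log2 ratio (x axis, positive where the 7-library mean is higher, bins of 0.25) for all 15298 rows, with lines at the ratios of the 6 rows of OSCAR, CLEC4E, FCER1G, LYN and PLCG2 and a dotted line at the median of -0.14; the height of a line has no meaning. OSCAR (3.68) stands in the right tail, CLEC4E (-1.24) on the left flank, and the rows of LYN and PLCG2 near the centre.

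FCER1G (XM_004390210.1) encodes the common gamma chain, an adaptor with 1 ITAM that serves OSCAR, CLEC4E and several receptors for the constant part of antibodies. Its means were 110 normalized counts over the 4 libraries and 212 over the 7 libraries. The log2 ratio of 0.94 fell just short of the 2-fold line and passed it at 1.08 after subtracting the median. For the 4-library mean, 2 combinations of whole reads remained. In the first, the normalized counts, taken by falling size factor, were 126, 76.9, 172 and 64.6, and all 4 lay below the 7-library mean. In the second they were 223, 31.2, 95.1 and 91.5, and 3 of the 4 lay below it. Leaving out each library in turn gave log2 ratios between 0.76 and 1.24 in the first case and between 0.63 and 1.54 in the second, where the highest was that without the library of size factor 1.56. The direction was thus kept in either case, while the side of the 2-fold line was not.

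LYN, a Src family kinase that phosphorylates activating motifs and also the inhibitory motifs that restrain these receptors, had 2 records. The stronger record (XM_004372585.1) had means of 329 normalized counts over the 4 libraries and 420 over the 7 libraries, a log2 ratio of 0.35. The weaker record (XM_004372586.1) had means of 96.4 and 95.8 and a log2 ratio of -0.01. For the weaker record the 4 libraries held 204, 76, 67 and 27 reads in order of falling size factor. These came to normalized counts of 131, 74.0, 108 and 72.6, a mean of 96.4 ± 28.2 (SD, n = 4). The 7-library mean lay inside this range, with 2 libraries above it and 2 below it. With single libraries of the 4-library group left out, the log2 ratio lay between -0.12 and 0.17.

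With both LYN records added together the log2 ratio was 0.28, or 1.21-fold in favour of the 7-library mean. The weaker record made up 22.7% of the 4-library sum and 18.6% of the 7-library sum. Records of 1 gene share exons, and how the counting divided reads from shared exons is not given in the sources used here, so the split between the records is uncertain.

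PLCG2 (XM_004377718.1), the phospholipase C gamma of B cells and myeloid cells, cleaves a membrane lipid into the messengers that release calcium and activate protein kinase C. Its means were 1073 normalized counts over the 4 libraries and 1228 over the 7 libraries. The log2 ratio was 0.19, and 0.33 after subtracting the median. The kinase and the phospholipase thus lay nearer to the median of all rows than either receptor did; 64.9% of all rows had a lower log2 ratio than PLCG2 and 71.4% a lower one than the stronger LYN record.

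The rest of the pathway was read from 6 lists of other genes by role. Where a gene had several records, that with the highest mean over all libraries stood for it. Of 116 genes listed, 51 had a row. At least 2-fold higher in the 7-library mean were 7 of the 51, where 9.48% of all 9641 genes with a symbol were, and at least 2-fold higher in the 4-library mean were 8, where 24.5% of all genes were. The latter share depends on level: it was 23.9% of all rows and 12.3% of rows with a mean of at least 10. Of the 8, YES1, TNFSF11, OCSTAMP and ATP6V0D2 had means over all libraries below 10. The shares of all genes also stand beside the counts of single lists below. The median log2 ratio was 0.10 over the 51 genes and -0.17 over all genes with a symbol. Genes are named here if they passed a fold of 2 with a mean over all libraries of at least 10.

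Coverage was thinnest among receptors and adaptors. Of 24 other ITAM-coupled receptors only CLEC9A had a row, and of 7 other adaptors only HCST, the adaptor of the NKG2D receptor, with 13.1 normalized counts over the 4 libraries and 12.2 over the 7 libraries. CLEC9A (XM_004391385.1), a receptor of cross-presenting dendritic cells that binds actin exposed on dead cells and recruits SYK, had means of 81.9 over the 4 libraries and 23.0 over the 7 libraries. CLEC9A reached normalized counts of 86.6 and 163 in the libraries of size factor 1.56 and 1.03, and of 43.5 and 35.0 in the libraries of size factor 0.620 and 0.372. All 4 lay above the 7-library mean, with a log2 ratio of -1.83. CLEC9A thus had the direction of CLEC4E and not that of OSCAR.

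Among 7 of 12 other kinases of the Src, Syk and Tec families and their regulator CSK, CSK was the gene named. CSK (XM_004374751.1), which switches Src family kinases off, had means of 202 normalized counts over the 4 libraries and 515 over the 7 libraries, a log2 ratio of 1.35. The Tec kinase BTK, which activates phospholipase C gamma, had means of 1450 and 1379. YES1, a Src family kinase found in most tissues, was past a fold of 2 in favour of the 4-library mean but rested on low means of 11.3 and 2.82.

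Of 29 scaffolds and effectors 20 had a row, and 3 were at least 2-fold higher in the 7-library mean while 0 were in the 4-library mean. GAB2 (XM_004382004.1), a docking protein that recruits phosphatidylinositol 3-kinase, had normalized counts of 75.7, 96.4, 69.3 and 94.2 in the 4 libraries in order of falling size factor, against a 7-library mean of 220. RASGRP3 (XM_004369608.1), an activator of Ras that responds to the lipid product of phospholipase C, had normalized counts of 78.3, 32.1, 54.8 and 61.9 against a 7-library mean of 143. PIK3CD (XM_004385140.1), a leukocyte catalytic subunit of phosphatidylinositol 3-kinase, had normalized counts of 8.98, 12.7, 3.22 and 35.0 against 35.4. All 4 libraries lay well below the 7-library mean for GAB2 and RASGRP3, whereas the library of size factor 0.372 came within 1 normalized count of it for PIK3CD. The log2 ratios were 1.39 for GAB2, 1.33 for RASGRP3 and 1.24 for PIK3CD. The value of PIK3CD leaned on 1 library: without that of size factor 0.372 the fold was 4.28 in place of 2.37, and without that of size factor 0.620 it was 1.88, under the 2-fold line. CARD9, the scaffold that links SYK to NF-kB downstream of CLEC4E, had means of 96.4 over the 4 libraries and 119 over the 7 libraries, and its partners BCL10 and MALT1 had log2 ratios of -0.34 and -0.08.

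**Figure D3:**
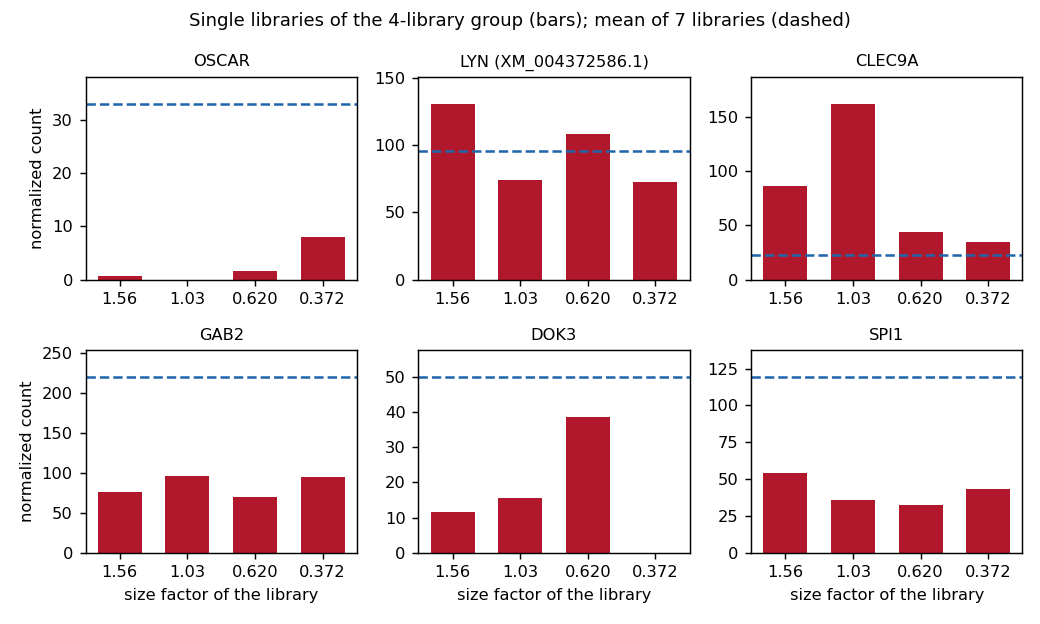
Normalized counts (y axis, from 0) in each library of the 4-library group (red bars, labelled by size factor on the x axis) with the authors' mean over 7 libraries (blue dashed line), for OSCAR, the weaker LYN record, CLEC9A, GAB2, DOK3 and SPI1. All bars stay below the dashed line for OSCAR, GAB2, DOK3 and SPI1 and above it for CLEC9A, and they lie on both sides of it for LYN.

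Of 29 inhibitory receptors, phosphatases and other restraining proteins 10 had a row, 2 of them at least 2-fold higher in the 7-library mean. DOK3 (XM_004371139.1), an adaptor that dampens ITAM and Toll-like receptor signals in myeloid and B cells, had normalized counts of 11.5, 15.6, 38.7 and 0 in the 4 libraries in order of falling size factor. The 0 stands in the library of size factor 0.372 and allows a normalized count of up to 8.07. Its 7-library mean was 50.0 and its log2 ratio 1.60, a fold of 3.04, which was 5.53 without the library of size factor 0.620. CD22 (XM_004388192.1), an inhibitory receptor of B cells, had normalized counts of 32.1, 25.3, 17.7 and 80.7 against a 7-library mean of 81.6, a log2 ratio of 1.07. The 4-library mean of CD22 thus rested in large part on the library of size factor 0.372, which reached almost to the 7-library mean, and without it the fold was 3.26 in place of 2.09; leaving out each of the others gave folds of 1.77 to 1.98, under the 2-fold line. INPP5D, the lipid phosphatase SHIP1, and PTPN11, the tyrosine phosphatase SHP2, had log2 ratios of 0.08 and 0.15.

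The last list held osteoclast genes and regulators of OSCAR, of which 12 of 16 had a row. In this list 1 gene was at least 2-fold higher in the 7-library mean, where 9.48% of all genes with a symbol were. In the 4-library mean 6 were, where 24.5% of all genes were, and some of the 6 had low means. The median log2 ratio of the list was -0.72. SPI1 (XM_004387700.1), the myeloid transcription factor PU.1 that acts on the OSCAR promoter, had the direction of OSCAR: its normalized counts were 53.9, 36.0, 32.2 and 43.0 in the 4 libraries in order of falling size factor, all below the 7-library mean of 119. Its log2 ratio was 1.53. MITF, a partner of SPI1 at this promoter, had means of 9.80 over the 4 libraries and 16.4 over the 7 libraries.

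The other named genes of the osteoclast list had the opposite direction. ITGB3 (XM_004374245.1), the integrin beta chain of osteoclasts and also of platelets, had means of 4725 over the 4 libraries and 1019 over the 7 libraries, a log2 ratio of -2.21. FOS (XM_004371055.1), part of the AP-1 transcription factor, had means of 4972 and 1277, a log2 ratio of -1.96. TRAF6 (XM_004369806.1), the ubiquitin ligase that carries the RANK signal, had means of 673 and 317, a log2 ratio of -1.08. The remaining 3 genes higher in the 4-library mean were TNFSF11, OCSTAMP and ATP6V0D2, which were weak, with means over all libraries of 5.40, 2.50 and 6.19. CSF1R, the receptor for the growth factor of monocytes and osteoclasts, had means of 449 and 496.

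**Figure D4:**
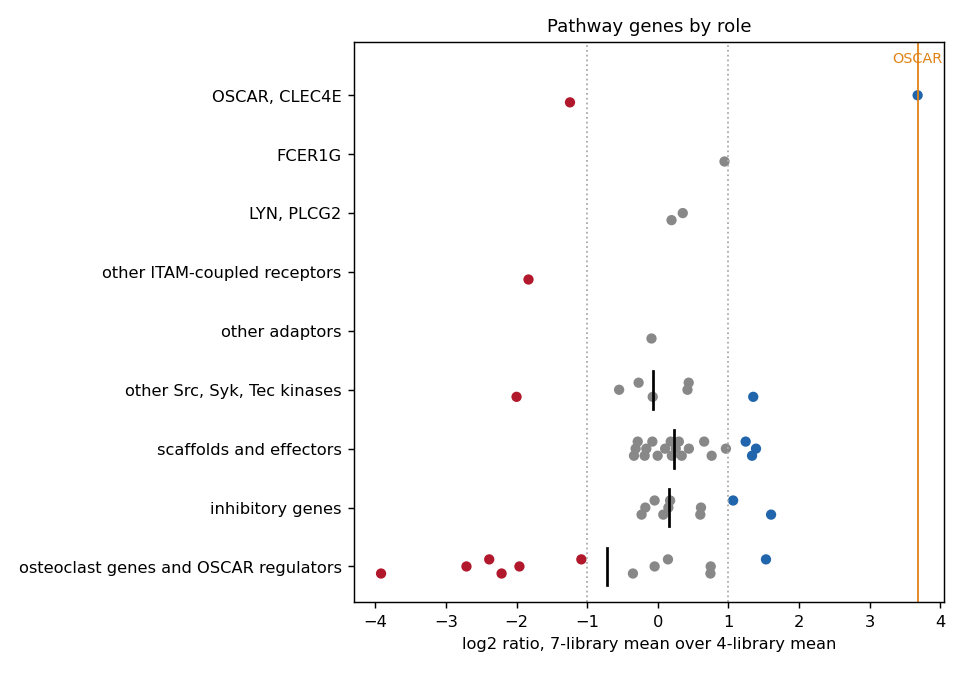
Log2 ratio (x axis, positive where the 7-library mean is higher) for each gene with a row, by role in the pathway (y axis); blue and red mark a fold of at least 2 in favour of the 7-library and the 4-library mean, black bars mark the median of groups with more than 2 genes, and the vertical line marks OSCAR at 3.68. No other gene of these groups had a ratio as high as OSCAR; most kinases, scaffolds and inhibitory genes lie between the dotted lines at a fold of 2, and the osteoclast list reaches furthest to the left.

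Markers of blood cell types were read beside these genes. Of all genes with a symbol, 9.48% were at least 2-fold higher in the 7-library mean and 24.5% in the 4-library mean. Of 16 neutrophil markers 11 had a row, and 8 of the 11 were at least 2-fold higher in the 7-library mean and 1 in the 4-library mean. Their median log2 ratio was 2.36, and their summed level was 2881 normalized counts in the 4-library and 13076 in the 7-library group, 4.54-fold higher in the latter. The neutrophil genes with the highest means, S100A9 and S100A8, calcium-binding proteins of the cytoplasm, had log2 ratios of 2.70 and 2.36. Of 12 monocyte markers 8 had a row, with 2 higher in each direction, a median of 0.15 and summed levels of 2630 and 3448. LYZ and CSF1R, the monocyte genes with the highest means, had log2 ratios of 0.57 and 0.14. No row of the whole table had a mean of 0 in either group, so that none of these markers did says nothing particular about them. The study had itself picked CSF3R, CXCR1, CXCR2, MMP9, S100A8 and S100A9 of the neutrophil list, CCR2 and CX3CR1 of the monocyte list and FOS and TRAF6 of the osteoclast list from these libraries, so these lists are not independent evidence of a direction. OSCAR, FCER1G, PLCG2 and the stronger LYN record had positive log2 ratios, the sign of the neutrophil median, while CLEC4E had a negative one. Those of PLCG2 (0.19) and the stronger LYN record (0.35) lay nearer to the monocyte median than to the neutrophil median. Of the other named pathway genes, CSK, GAB2, RASGRP3, PIK3CD, DOK3, CD22 and SPI1 also had positive ratios. CLEC9A, ITGB3, FOS and TRAF6 had negative ratios, as did the neutrophil markers FPR1 (-0.66), MPO (-0.92) and AZU1 (-2.38). The pathway genes were named for the largest folds past 2, up to 3 per direction in each list. Their signs thus do not describe the pathway as a whole. The part of cell numbers in these differences was not tested.

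Within the 4-library group the order of OSCAR was not that of a sum of neutrophil markers. The summed normalized counts of CXCR1, CXCR2, MMP9 and PADI4, the 4 neutrophil markers whose reads could be worked out at a mean over all libraries of at least 10, were 79.5, 190, 422 and 148 in the libraries taken by falling size factor. OSCAR was highest in the library of size factor 0.372 and this sum in the library of size factor 0.620. The markers did not share 1 order: PADI4 was lowest in the library of size factor 0.620, with 30.1, 31.2, 16.1 and 18.8 by falling size factor. With 5 OSCAR reads in the 4 libraries, the order of single libraries is not resolved.

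**Figure D5:**
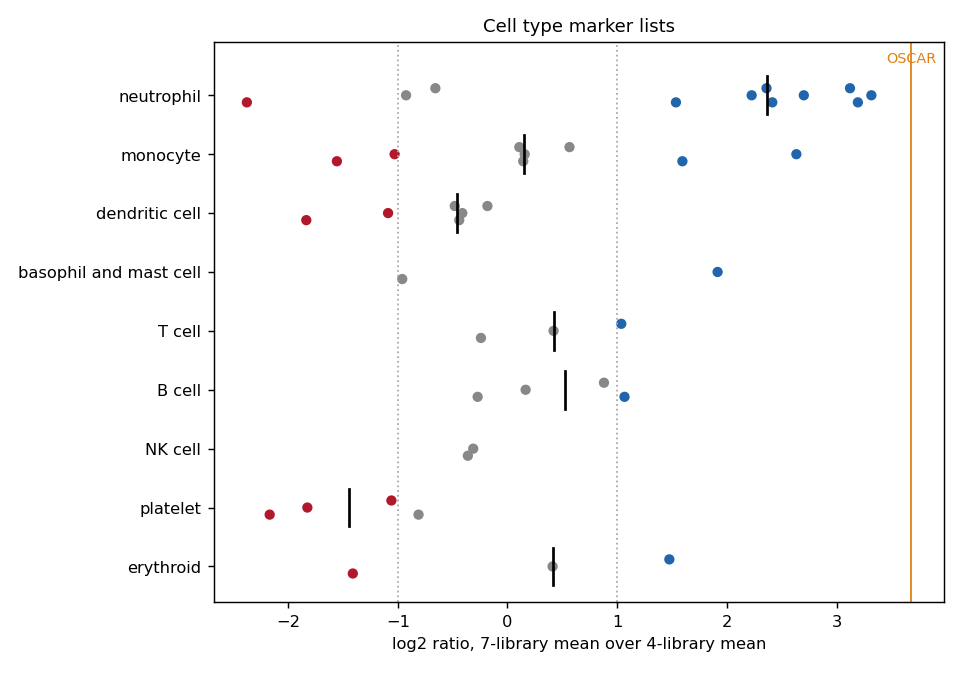
Log2 ratio (x axis, positive where the 7-library mean is higher) for each marker gene with a row, by cell type (y axis), with colours, dotted lines and black medians as for the pathway genes and a vertical line for OSCAR at 3.68. The neutrophil list is shifted furthest to the right (median 2.36), the monocyte list is centred near 0 (median 0.15) and the platelet list is shifted to the left (median -1.44).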

How the data were processed

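The authors cleaned reads with Cutadapt and mapped them to the TriManLat1.0 assembly with Bowtie2. How reads were assigned to records is not given in the sources used here. After removing duplicates and reads with several mapping places, the authors counted the rest for each gene sequence and ran DESeq. The values used are the authors' deposited signal: the mean, over libraries, of counts divided by the authors' DESeq size factors. The table's other columns hold the authors' fold change, its log2 and the p-values, and were not used. Because the table holds no column of a single sample, no test was made. The members and gene lists were chosen with earlier results of these data known.

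The overall mean weights the group means by 4 and 7 of 11 libraries in every row (largest relative deviation 3.3e-09). Size factors and reads were worked out with Python 3.11.15 and numpy 2.4.6 from means deposited to 10 significant digits. The lowest 300 different values of the first group and 400 of the second each gave a single combination. Tested on simulated data for the 4 libraries, 99.6% of 3840 means had a single solution, which matched the simulated reads in 100% of cases. Symbols were matched by RefSeq record without its version. Coordinates are left out because the scaffolds have no names in that table, and levels were not compared between genes. Named genes are all members with a row and, in each pathway list, up to 3 genes per direction with the largest fold past 2 at a mean of at least 10. In each cell type list they are the 2 genes with the highest mean. Other genes were named after their values had been seen: HCST, BTK, YES1, CARD9, BCL10, MALT1, INPP5D, PTPN11, MITF, CSF1R in the osteoclast list, TNFSF11, OCSTAMP, ATP6V0D2 and the neutrophil markers CXCR1, CXCR2, MMP9, PADI4, FPR1, MPO and AZU1. Columns of single samples left unused numbered 0.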

Additional observations from a re-analysis of the deposited data

Results flagged for a closer look

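No value met the criteria for a closer look. In the 9 sets of 4 libraries checked, the widest gap at an end was that of OSCAR in the library of size factor 0.372, at 0.800 of the range, which is below Dixon's critical value for 4 samples.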

How the results depend on the processing

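With a pseudocount of 1, a filter at a mean of 10 or 1 row per symbol, OSCAR stayed the 1 row at least 2-fold higher in the 7-library mean and CLEC4E the 1 row at least 2-fold higher in the 4-library mean. The first count was 2, with FCER1G added, when ratios were centred on the median of all rows and at a fold of 1.5; the second was 0 at a fold of 4. Centring, which shifts all ratios alike, gave -1.10 for CLEC4E and 0.33 for PLCG2, both outside their counting intervals. Leaving out each of the 4 libraries gave log2 ratios of 3.27 to 5.46 for OSCAR and of -0.12 to 0.17 for the weaker LYN record. For the named genes of the lists whose reads could be worked out, single libraries were left out in the same way, which was added after the data had been seen. Adding the LYN records, an alternative chosen after the data had been seen, gave 0.28. The share of all rows at least 2-fold higher in the 7-library mean was 9.59% at a mean of at least 10 and 13.1% with centring, and in the 4-library mean 12.3% and 21.4%; centring was added for these shares after the data had been seen. Leaving out single libraries of the 7-library group was not run, because the 7-library means were not taken apart into libraries. No paired analysis was possible because the columns are group means and carry no replicate numbers. Depth limits OSCAR most, with 5 reads in 4 libraries.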

Other observations

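The remaining cell type lists moved less than the neutrophil list or the other way. Of all genes with a symbol, 24.5% were at least 2-fold higher in the 4-library mean and 9.48% in the 7-library mean. Of 9 platelet markers 4 had a row, and 3 of the 4 were at least 2-fold higher in the 4-library mean. The median log2 ratio of the platelet markers (positive where the 7-library mean is higher) was -1.44. TUBB1, the tubulin of platelets, had means of 6392 normalized counts over the 4 libraries and 1422 over the 7 libraries, and ITGA2B, the alpha chain that pairs with ITGB3 on platelets, had means of 3996 and 1919. Of 7 dendritic cell markers 6 had a row, with 2 higher in the 4-library mean and a median of -0.46; FLT3 and IRF8 had log2 ratios of -0.44 and -0.18. In the erythroid list 3 of 9 genes had a row, and ALAS2, which starts heme synthesis, had a log2 ratio of 1.48 and SLC4A1 one of 0.41, which was 1.35 without the library of size factor 0.620 in the 4-library group.

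The lymphoid lists were thinly covered. Of 10 T cell markers 3 had a row, with a median log2 ratio of 0.42, and CD4 and CD28 had ratios of 1.04 and -0.24. Of 9 B cell markers 4 had a row, with a median of 0.52, and MS4A1 and BLK had ratios of 0.17 and -0.27. Of 8 NK cell markers 2 had a row, NCAM1 (-0.31) and PRF1 (-0.36). Both changed sign with 1 library of the 4-library group left out, NCAM1 to 0.82 without that of size factor 0.620 and PRF1 to 0.47 without that of size factor 1.56. Basophils and mast cells, which signal through FCER1G, LYN and SYK at their IgE receptor, were represented by 2 of 8 markers at summed levels of 8.54 normalized counts in the 4-library and 8.34 in the 7-library group; CPA3 had a ratio of -0.96 and GATA2 one of 1.92, which was 2.83 without the library of size factor 1.03.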
